A study of Arabidopsis thaliana with 27 samples.

Results

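Seeds of the phytochrome B mutant phyB after 48 h of darkness were compared with wild-type seeds after 12 h, gene by gene. The members are 3 libraries of phyB at 48 h and 3 of the wild type at 12 h, 6 of the 27 libraries of the series, and all 20465 genes with enough counts to be tested, of 33612 in the count table. The wild type (WT) is Arabidopsis thaliana, ecotype Col-0. The labels name the mutant phyB without an allele. The series also holds hid1, in which the noncoding RNA HID1 is mutated, and covers each genotype at 12, 24 and 48 h. It asks whether HID1 promotes germination that depends on phytochrome B through abscisic acid synthesis. Both groups came from seeds of plants grown together, dried for about 2 months and exposed to white light for 1 h. Red light of 20 μmol m-2 s-1 followed for 5 min, a treatment that activates phytochrome B where it is present. Each group held 3 biological replicates of whole seeds. Time and genotype differ together in this comparison and cannot be told apart in it. The WT libraries at 48 h were therefore set beside it. The test of phyB at 48 h against WT at 48 h is also the test of whether the change from WT at 12 h to phyB at 48 h differs from the change of WT over the same hours. Whether the seeds had germinated is not given for any library.

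Phytochrome B is a red light receptor. Its active form enters the nucleus and leads to the breakdown of PIF1, a repressor of germination that keeps abscisic acid (ABA) high and gibberellin (GA) low through factors such as SOMNUS. In an imbibed seed that goes on to germinate, messages stored from maturation (storage proteins, oil body proteins and late embryogenesis abundant proteins) decline, while genes for cell wall loosening, ribosomes, reserve use and, later, photosynthesis and cell division rise. In whole seeds a lower level of a transcript may come from fewer cells of a type or from less RNA per cell, and counts cannot tell these apart.

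Totals lay between about 14750200 and 26293100 counts over the 27 libraries. Levels are given as CPM, counts per 1000000 scaled with TMM factors, and changes as log2 fold changes ± SE, positive where phyB at 48 h was higher. Genes said to have risen or fallen passed edgeR's quasi-likelihood test at an adjusted p under 0.05. PHYB transcripts, 103, 116 and 117 CPM in the mutant and 117, 119 and 114 CPM in WT at 12 h, did not pass (log2 -0.06 ± 0.06, adjusted p 0.420), so their level gives no check of the genotype label. HID1 itself also did not pass, at 18.1, 24.02 and 21.3 against 25.4, 26.4 and 21.6 CPM (log2 -0.22 ± 0.12, adjusted p 0.106). HID1 passed as lower under total count scaling (log2 -0.65), with only the compared groups fitted (adjusted p 0.0487), without phyB replicate 2 (adjusted p 0.0345) and without WT replicate 3 (adjusted p 0.0412).

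The WT libraries at 12 h differed from each other in several gene groups. A set of 45 genes held at most 3 counts over the WT libraries at 24 h and at least 50 CPM on average in WT at 48 h, a set chosen after its values were seen. Their summed level in replicates 1, 2 and 3 of WT at 12 h was 52.1, 5.81 and 22.9 CPM. The WT levels at 24 h (0.491, 0.510 and 0.250 CPM) and at 48 h (12195, 10978 and 9034 CPM) were set by that choice. Among groups outside the choice, hid1 held 4.88, 5.20 and 14.5 CPM at 12 h and 0.339, 0.693 and 0.622 CPM at 24 h. By label, phyB held 0.588, 0.344 and 0.739 CPM at 12 h and 0.248, 0.363 and 0.544 CPM at 24 h. The phyB libraries at 48 h held 6.56, 15.1 and 4.46 CPM. Transcripts of the WT 48 h kind were thus present at a low level in hid1 at 12 h and in WT at 12 h. Of the WT libraries at 12 h, replicate 1 held most and replicate 2 least. Whether these reads came from the seeds of those libraries was not tested, so falls measured against WT at 12 h in such genes are uncertain. Heat shock genes took 0.0805% of counts in replicate 2 and 0.164% and 0.161% in replicates 1 and 3, while GA20OX3 and RBCS1A, described below, were highest in replicate 2. Of the 45 genes, 7 passed the test as lower in phyB at 48 h than in WT at 12 h, 2 as higher, and 36 did not pass. Among all genes 33.9% were lower and 35.5% higher. The 45 were low in both groups compared, so a gene that did not pass is not shown to be unchanged. The part of the 45 genes in the falls described below was not tested beyond a repeat with replicate 2 as the only WT library at 12 h. Values of that repeat are given beside several of the lists and genes that it moved. In that repeat the lone library is assumed to vary like the other groups.

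**Figure D1:**
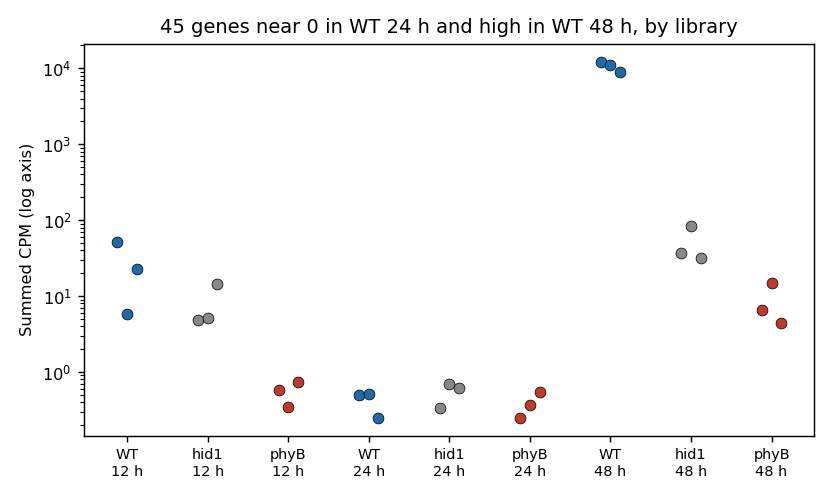
Summed CPM (log axis) of 45 genes that are near 0 in WT at 24 h and high in WT at 48 h, 1 point per library, in the 9 groups of genotype and time. WT at 12 h spans 5.81 to 52.1 CPM and phyB at 48 h spans 4.46 to 15.1 CPM, while WT at 48 h lies at 9034 CPM or above.

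The late mutant seeds did not simply hold the transcripts of early wild-type seeds. Of the 20465 genes tested, 14217 (69.5%) passed the test, 7271 (35.5%) higher and 6946 (33.9%) lower in phyB at 48 h. The 20465 include genes kept through other groups, and 465 of them (2.27%) had no count in either group compared. With only the compared groups fitted, 12916 of 16842 genes passed, 6359 higher and 6557 lower. Shares of all genes given below rest on the 20465. Changes of at least 2-fold were found in 2928 higher (14.3%) and 3423 lower genes (16.7%), and of at least 8-fold in 298 (1.46%) and 570 (2.79%). Replicates did not overlap for 14221 genes (69.5%). A test against a fold of 2 itself called 4248 genes, 1907 higher and 2341 lower. The WT change from 12 to 48 h, which shares the 3 WT libraries at 12 h, called 17965 genes (87.8%), 47.3% of all tested higher and 40.5% lower, with 34% at least 2-fold higher, 3660 genes at least 8-fold higher and 790 at least 8-fold lower. Against WT at 48 h, phyB at 48 h differed in 18297 genes (89.4%), with 40% higher, 37.3% at least 2-fold lower and 20.1% at least 8-fold lower. Replicates did not overlap for 86.6% of genes in WT over time and 88.7% between the genotypes at 48 h. With no factor beyond total counts, the median log2 change over all genes was -0.41 in place of 0 and the split became 4215 higher and 10155 lower. The 10 genes with the most counts took 28.9 to 30.8% of each mutant library and 8.85 to 9.29% of each WT library at 12 h. Where that scaling turns the direction of a gene group or of a named gene, its values are given beside it. Whether counting used strand was not given in the sources used here, so reads of a gene and of an antisense partner cannot be told apart. In every gene below whose 3 values are given in both groups and which passed the test, the replicates of the groups did not overlap, except SESA1 and CYP707A3.

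In the distance over log2 CPM of all genes tested (root mean square, prior count of 2), the phyB 48 h libraries were 1.13 to 1.19 from the mean of WT at 12 h and 2.70 to 2.79 from WT at 48 h. The nearest group was the one labelled phyB at 24 h, at 0.874 to 0.972. Replicates of phyB at 48 h were 0.402 to 0.424 from each other and those of WT at 12 h 0.360 to 0.564. The mutant was thus nearer to early than to late wild-type seeds, yet farther from the early seeds than replicates were from each other. On the first principal component, which runs towards WT at 48 h, the phyB 48 h libraries lay beyond WT at 12 h at the opposite end. On the second they lay apart from all other groups.

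**Figure D2:**
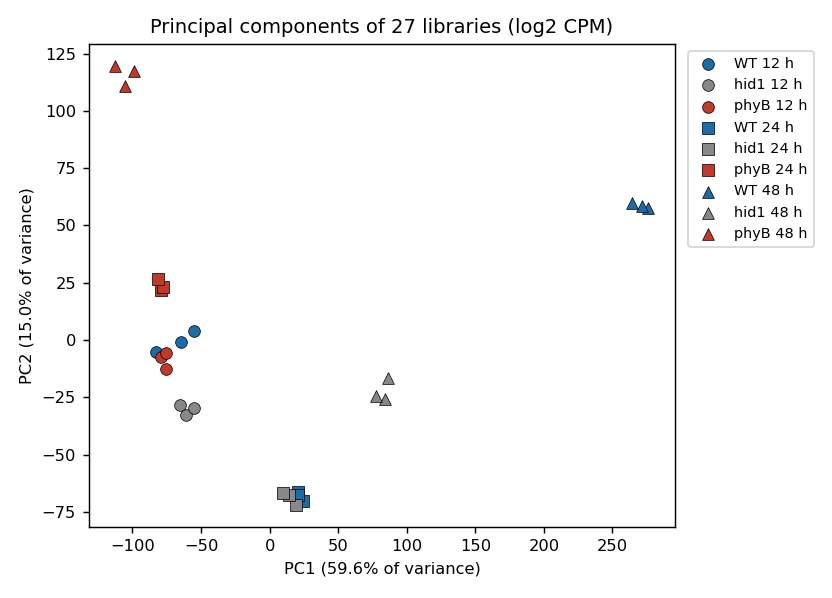
First and second principal components of log2 CPM for the 27 libraries, with 59.6% and 14.99% of the variance. Colours mark genotype and shapes mark time. The 3 phyB 48 h libraries lie between -112 and -98.7 on the first and between 111 and 119.6 on the second component, and WT at 12 h between -82.6 and -54.9 on the first.

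Most seed storage protein transcripts rose above their early wild-type level. The 9 genes of the 12S cruciferins and 2S albumins, the main protein reserves of the seed, took 21.9 to 23.62% of all counts in phyB at 48 h, against 4.51 to 4.82% in WT at 12 h and 0.687 to 1.21% in WT at 48 h. CRA1 (CRUCIFERINA, AT5G44120) alone took 12.1 to 13.1% of the counts in the mutant and 2.41 to 2.92% in WT at 12 h. Its level was 177236, 165886 and 191043 CPM in the 3 mutant libraries, 25257, 31599 and 25455 CPM in WT at 12 h and 3881, 6704 and 5276 CPM in WT at 48 h. All mutant libraries lay above all WT libraries of both times, with a log2 change of 2.70 ± 0.18 (adjusted p 2.74e-13). CRU3, another cruciferin, rose from 14421, 14279 and 13105 to 108307, 97907 and 115542 CPM (log2 2.94 ± 0.22). CRU2 (AT1G03890), also a cruciferin gene, was low in WT at 12 h at 10.004, 4.78 and 9.59 CPM and stood at 252, 235 and 258 CPM in the mutant, the largest rise of the list (log2 4.93 ± 0.28). Of the 9 genes, all tested, 6 rose and 2 fell, with a median log2 change of 2.302 against 0 over all genes, of which 35.5% rose and 33.9% fell. In WT from 12 to 48 h all 9 fell, with a median of -3.57 against 0.13 over all genes, 40.5% of which fell.

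**Figure D3:**
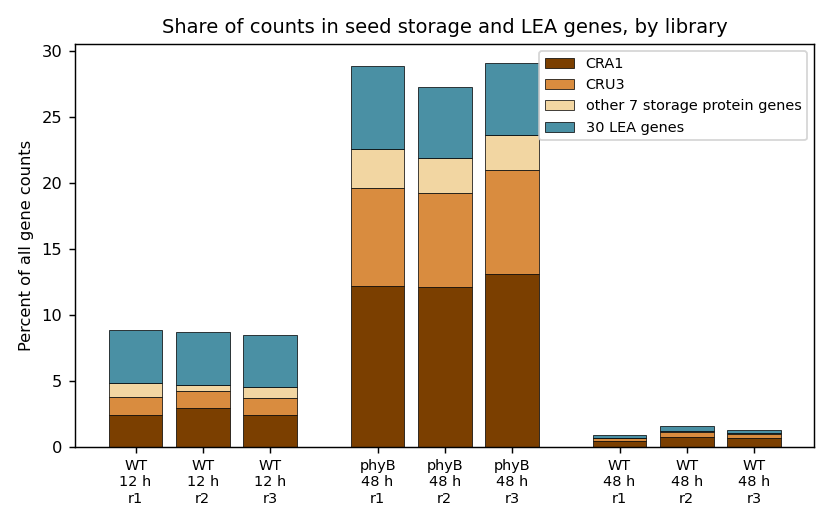
Percent of all gene counts taken by CRA1, CRU3, the other 7 storage protein genes and 30 late embryogenesis abundant (LEA) genes, stacked, 1 bar per library. Storage genes take 21.9 to 23.62% in phyB at 48 h and 4.51 to 4.82% in WT at 12 h, and LEA genes 5.42 to 6.25% and 3.96 to 4.06%.

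The 2S albumin genes did not move together. SESA1 to SESA4 stand side by side on chromosome 4 and resemble each other in sequence, so reads may be shared among them and the values of single copies are uncertain. SESA5, on chromosome 5, rose from 6532, 3660.3 and 5507 to 37027, 31722 and 34068 CPM (log2 2.71 ± 0.21). SESA2 rose from 617, 216 and 485 to 2556, 1881 and 2066 CPM (log2 2.302 ± 0.29). SESA3 stood at 1431, 1076 and 1111 CPM beside 1938, 546 and 1332 CPM and did not pass (adjusted p 0.894). SESA1 stood at 144, 105 and 103 CPM against 400.3, 99.7 and 255 CPM in WT at 12 h, and SESA4 at 105, 88.8 and 77.4 against 438, 113 and 341 CPM. These 2 passed the test as lower (log2 -1.098 ± 0.34 and -1.72 ± 0.41), but their WT libraries spread widely, replicate 1 highest and replicate 2 lowest. Without WT replicate 1 at 12 h SESA1 no longer passed (log2 -0.59, adjusted p 0.121), and with replicate 2 alone neither did, at 0.23 and -0.32.

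The sequence just before the gene start is shown for the 5 albumin genes. Each line gives 130 bases up to the base before the start annotated by NCBI RefSeq on the TAIR10.1 build, 5′ to 3′ on the strand of the gene. Capitals mark the G-box CACGTG and the RY element CATGCATG, both known from seed promoters, wherever these letters stand on either strand.
SESA1 (chr4:13607199-13607328, plus strand): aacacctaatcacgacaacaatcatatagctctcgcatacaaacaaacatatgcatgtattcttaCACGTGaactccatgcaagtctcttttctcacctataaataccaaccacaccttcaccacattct
SESA2 (chr4:13609211-13609340, plus strand): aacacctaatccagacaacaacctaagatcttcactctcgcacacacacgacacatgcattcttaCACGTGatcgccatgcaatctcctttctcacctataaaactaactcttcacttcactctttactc
SESA3 (chr4:13611666-13611795, plus strand): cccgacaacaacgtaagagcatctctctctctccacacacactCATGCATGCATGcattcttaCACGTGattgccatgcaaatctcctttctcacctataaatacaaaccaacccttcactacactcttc
SESA4 (chr4:13613466-13613595, plus strand): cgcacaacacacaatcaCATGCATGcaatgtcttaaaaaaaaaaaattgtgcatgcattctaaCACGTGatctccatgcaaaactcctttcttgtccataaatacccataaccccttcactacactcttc
SESA5 (chr5:22239188-22239317, minus strand): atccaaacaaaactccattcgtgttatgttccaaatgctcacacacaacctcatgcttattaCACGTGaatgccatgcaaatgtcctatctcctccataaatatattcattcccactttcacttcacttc
All 5 hold the G-box 65 to 68 bases before the start. The longest identical run between 2 of these stretches was 22 bases, between SESA2 and SESA3 (log2 2.302 and -0.08). The values of these single copies are uncertain, as said above. An RY element lies in the stretches of SESA3 and SESA4. In 250 bases before the start, 5 of 9 storage genes hold a G-box and 3 an RY element, against 6.49% and 0.776% of the 27437 windows of protein-coding genes. The cruciferin genes CRA1, CRB, CRU2 and CRU3 hold neither. These are matches of letters and say nothing of binding, and their part in the changes was not tested.

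Oil body proteins coat the lipid droplets of the seed. All 7 genes were tested, and 5 rose while 2 fell (median log2 0.50), against 35.5% and 33.9% of all genes. Under total count scaling 3 rose (median 0.07). In WT by 48 h all 7 fell (median -4.43), where 40.5% of all genes fell. Caleosin CLO1 rose from 205, 204 and 218 to 969, 855 and 871 CPM and the oleosin OLEO4 from 745, 682 and 703 to 2861, 2217 and 2445 CPM, with log2 changes of 2.101 ± 0.15 and 1.82 ± 0.16. The oleosin OLEO3 went the other way, from 89.8, 112 and 83.6 to 45.3, 35.2 and 41.8 CPM (log2 -1.22 ± 0.13). The steroleosin HSD1 (AT5G50600) had 0 counts in all 3 mutant libraries and 42.3, 31.8 and 28.5 CPM in WT at 12 h, which makes it at least 487-fold lower, with a floor of 3 counts over the group. HSD1 has a near-identical copy in the genome, so its reads may be divided between copies.

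Late embryogenesis abundant (LEA) proteins protect the embryo during drying. Of 30 genes 29 were tested, and 15 rose, 8 fell and 6 did not pass, where 35.5% of all genes rose and 33.9% fell. The median log2 change was 0.35 (-0.09 under total count scaling, where 9 rose and 13 fell). In WT over the same hours 26 fell and 3 rose, with a median of -4.87, where 40.5% of all genes fell. Their summed share of counts was 5.71% ± 0.471 in the mutant and 4.004% ± 0.0506 in WT at 12 h (SD, n = 3). ECP63 stood at 1564, 1409 and 1624 CPM in phyB, 1537, 1501 and 1446 CPM in WT at 12 h and 30.3, 52.0 and 47.7 CPM in WT at 48 h. It did not pass against WT at 12 h (log2 0.04 ± 0.11, adjusted p 0.805, and -0.40 under total count scaling) and exceeded the level of WT at 48 h by 5.14 ± 0.14. RAB28 rose from 31.6, 41.1 and 29.3 to 107, 99.99 and 102 CPM (log2 1.596 ± 0.11).

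M17, a LEA gene, stood far from the rest of its family. Its transcripts reached 26033, 22144 and 21589.6 CPM in phyB at 48 h, against 957, 636 and 1042 CPM in WT at 12 h and 444, 739 and 480.2 CPM in WT at 48 h (log2 4.73 ± 0.19, adjusted p 4.42e-18). Per length, the authors' deposited table gives M17 an FPKM of 15555 in phyB at 48 h, as a mean of the group. That was the fifth highest value, after CRA1 (72797), CRU3, LCR67 and SESA5, a rank looked up after the values were seen. At the other end, the dehydrin COR47 fell from 13.3, 13.5 and 13.3 to 0.479, 0.753 and 0.209 CPM (log2 -4.80 ± 0.28), while it rose in WT to 133, 121 and 98.2 CPM. LEA7 fell from 1154, 966 and 1192 to 482, 435 and 480.3 CPM (log2 -1.25 ± 0.08), and was still above the 24.5, 29.5 and 30.5 CPM of WT at 48 h.

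The stretch before the start is shown for 3 LEA genes with different changes. The gene with the largest rise lacks the elements that most of the list carries, as does the one with the largest fall. Capitals mark the ABA response elements ACGTGTC and ACGTGGC and the G-box, which can overlap each other.
EM6 (chr2:16780369-16780498, minus strand): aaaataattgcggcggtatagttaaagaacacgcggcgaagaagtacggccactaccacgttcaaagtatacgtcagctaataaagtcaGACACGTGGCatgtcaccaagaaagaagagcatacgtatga
RAB18 (chr5:26519448-26519577, minus strand): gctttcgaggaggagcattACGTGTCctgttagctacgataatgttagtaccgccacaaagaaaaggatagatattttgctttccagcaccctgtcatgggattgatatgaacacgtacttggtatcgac
M17 (chr2:17206322-17206451, plus strand): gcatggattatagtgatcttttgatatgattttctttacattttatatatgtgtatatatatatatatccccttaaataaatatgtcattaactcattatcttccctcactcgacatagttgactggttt
EM6 and RAB18, classic ABA-responsive genes chosen for display after their values were seen, changed by 0.79 ± 0.17 and 1.08 ± 0.16 on the log2 scale. M17, with the largest rise of the list, holds none of these letters in the stretch shown or in 250 bases. Neither do COR47, with the largest fall (log2 -4.80), and ERD10 (-2.89) in 250 bases. ECP31 (1.02), ERD14 (-0.62) and AT5G27980, which was not tested, lack them as well. An ABA response element lies within 250 bases of 23 of 30 LEA genes, against 6.39% of all windows. It was present in 12 of the 15 members that rose, 6 of the 8 that fell and 5 of the 6 that did not pass. The part of these elements in the changes was not tested.

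Heat shock genes, several of which are also active in seed maturation, rose in most cases. Of 20 members 13 rose and 2 fell (median log2 1.31), where 35.5% of all genes rose. In WT by 48 h 18 fell (median -3.38), where 40.5% of all genes fell. The chaperone HSP101 stood at 701, 683 and 790.1 CPM in the mutant and 123, 70.1 and 118 CPM in WT at 12 h (log2 2.80 ± 0.24). HSFA2, a heat shock factor, rose from 7.82, 5.24 and 9.12 to 41.8, 44.9 and 49.4 CPM and HSA32, needed for long-lasting heat tolerance, from 12.2, 10.9 and 12.6 to 57.8, 56.2 and 59.0 CPM. The small heat shock protein gene HSP23.6 rose from 16.96, 7.92 and 16.2 to 84.7, 66.0 and 77.1 CPM. In HSP101, HSFA2 and HSP23.6, WT replicate 2 was the lowest of its group. With it as the only WT library at 12 h 16 members rose and 0 fell.

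Genes for raffinose family sugars, which accumulate in dry seeds, changed in both directions. Among synthesis genes, stachyose synthase STS rose from 24.4, 31.3 and 28.3 to 242, 256 and 266 CPM (log2 3.19 ± 0.16), and the galactinol synthases GOLS1 and GOLS2 rose by 1.61 ± 0.10 and 1.71 ± 0.08. SIP2, a raffinose-cleaving galactosidase, fell from 506, 431 and 539 to 112, 99.99 and 90.2 CPM (log2 -2.29 ± 0.09). Over the list, 4 of 8 tested members rose and 3 fell, beside 35.5% and 33.9% of all genes (median 0.37, -0.06 under total count scaling). With WT replicate 2 alone 1 fell.

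**Figure D4:**
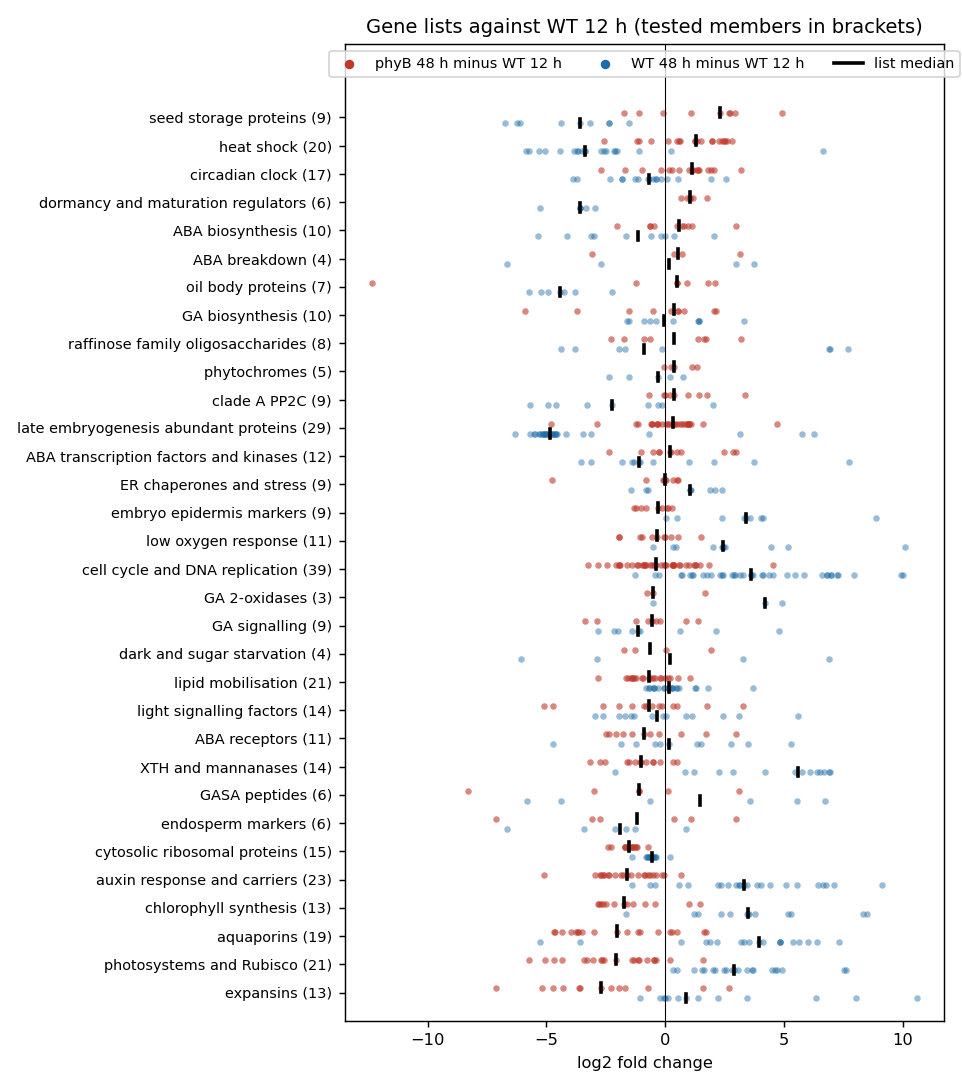
Log2 fold change against WT at 12 h of each tested member of 32 gene lists, for phyB at 48 h (red) and WT at 48 h (blue), with list medians as black bars. Both changes share the WT libraries at 12 h. Storage protein medians are 2.302 and -3.57, and LEA medians 0.35 and -4.87.

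Regulators of dormancy and seed maturation were higher in the late mutant than in early WT seeds. All 6 tested of 9 rose (median log2 1.02), where 35.5% of all genes rose. In WT by 48 h all 6 fell (median -3.59), where 40.5% of all genes fell. LEC1, LEC2 and L1L had too few counts to be tested. SOMNUS (SOM), a target of PIF1 that represses germination, stood at 1189, 1247 and 1292 CPM in phyB, 606, 732 and 624 CPM in WT at 12 h and 45.6, 58.4 and 57.1 CPM in WT at 48 h (log2 0.93 ± 0.08). FUS3, a maturation factor, rose from 7.11, 5.18 and 8.18 to 20.03, 22.9 and 26.0 CPM (log2 1.75 ± 0.16). DOG1, the main dormancy gene, was low throughout, at 3.62, 3.99 and 3.90 CPM in phyB and 2.18, 1.31 and 1.58 CPM in WT at 12 h (log2 1.17 ± 0.30). MFT, which acts in ABA and GA signalling of the seed, and DOGL4, a relative of DOG1, rose by 1.02 ± 0.11 and 1.02 ± 0.11 on the log2 scale.

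ABA synthesis genes changed in both directions. Of 10 members 5 rose and 3 fell (median log2 0.60), where 35.5% and 33.9% of all genes did. The share that fell was thus near that of all genes. Under total count scaling 4 rose and 4 fell. ABA1, an epoxidase early in the pathway, rose from 183, 181 and 182 to 309, 318 and 330.3 CPM (log2 0.81 ± 0.07), and the last-step aldehyde oxidase AAO3 rose from 19.8, 16.2 and 18.6 to 37.8, 41.0 and 40.4 CPM (log2 1.13 ± 0.09). Among the carotenoid-cleaving NCED enzymes, NCED6, known from the endosperm, rose from 1.07, 1.31 and 0.994 to 9.16, 8.06 and 9.26 CPM (log2 2.97 ± 0.22). NCED9 fell from 13.0003, 11.7 and 11.98 to 8.21, 7.83 and 7.87 CPM (log2 -0.62 ± 0.11), and NCED5 fell from 20.6, 16.2 and 19.6 to 4.44, 5.42 and 4.04 CPM (log2 -2.02 ± 0.16). All 3 NCED genes were higher in phyB than in WT at 48 h, by 4.61, 3.50 and 3.32 on the log2 scale.

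The ABA 8′-hydroxylases, which break the hormone down, moved in opposite directions. CYP707A2, the main seed form, stood at 9.71, 9.71 and 8.43 CPM in phyB at 48 h, 82.0, 69.3 and 87.5 CPM in WT at 12 h and 0.502, 0.726 and 1.17 CPM in WT at 48 h. It thus lay below the early and above the late WT level (log2 -3.10 ± 0.11 and 3.57 ± 0.19). CYP707A1 rose from 2.08, 0.854 and 2.28 to 15.04, 17.02 and 14.4 CPM (log2 3.14 ± 0.18), below the 22.5, 23.1 and 24.1 CPM of WT at 48 h (adjusted p 4.21e-05). CYP707A3 passed with all libraries (1.98, 0.684 and 1.75 to 2.80, 2.94 and 1.67 CPM, adjusted p 0.0243) and no longer did without phyB replicate 1 or 2 or WT replicate 2, at log2 changes of 0.61, 0.59 and 0.39, nor under total count scaling, at 0.29.

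ABA receptors mostly fell. Of 11 tested members 8 fell and 3 rose (median log2 -0.88; 33.9% of all genes fell). PYR1 fell from 98.6, 121 and 96.3 to 21.6, 17.7 and 21.6 CPM and PYL4 from 35.3, 35.6 and 37.8 to 7.25, 5.12 and 6.89 CPM, with log2 changes of -2.37 ± 0.11 and -2.49 ± 0.12. PYL13, an unusual member that binds no ABA, rose from 1.98, 2.96 and 2.28 to 19.1, 20.7 and 17.83 CPM (log2 3.0001 ± 0.20). The clade A protein phosphatases, which the receptors inhibit, went the other way, with 6 of 9 higher and 1 lower. Among all genes 35.5% were higher. The phosphatase median was 0.35 (-0.08 under total count scaling, where 4 rose and 4 fell). HAI1 rose from 2.44, 1.48 and 1.75 to 20.6, 18.4 and 19.4 CPM (log2 3.35 ± 0.18) and HAB1 from 59.3, 52.9 and 58.8 to 142, 159 and 161 CPM (log2 1.43 ± 0.07). HAI2 stood at 215, 197 and 215 CPM beside 219, 218 and 195 CPM in early WT seeds and did not pass (log2 -0.01 ± 0.07), while WT at 48 h held 7.36, 10.12 and 8.396 CPM.

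Among the ABA-responsive bZIP factors, 3 stood well above early WT seeds. ABF4 rose from 61.2, 61.7 and 61.6 to 395, 470.0 and 474 CPM (log2 2.86 ± 0.08), EEL from 64.1, 69.7 and 69.1 to 385, 368 and 364 CPM (log2 2.46 ± 0.11) and ABF1 from 5.13, 5.64 and 3.86 to 36.7, 41.6 and 36.6 CPM (log2 2.97 ± 0.11). ABI5, the bZIP factor best known for arresting germination, rose from 407, 382 and 362 to 542, 523 and 546 CPM (log2 0.48 ± 0.07, and 0.05 with an adjusted p of 0.522 under total count scaling). ABI3, the maturation factor, rose from 463, 565 and 477 to 727, 789 and 840.4 CPM (log2 0.65 ± 0.07). Both were far lower in WT at 48 h, at 27.8, 36.5 and 32.9 and 52.7, 56.0 and 61.7 CPM. ABI4 fell from 61.0, 41.9 and 58.7 to 10.7, 10.7 and 9.61 CPM (log2 -2.39 ± 0.12). Over the list of factors and SnRK2 kinases 6 of 12 rose and 3 fell, where 35.5% and 33.9% of all genes did. The median was 0.22 (-0.21 under total count scaling, where 4 rose and 5 fell).

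**Figure D5:**
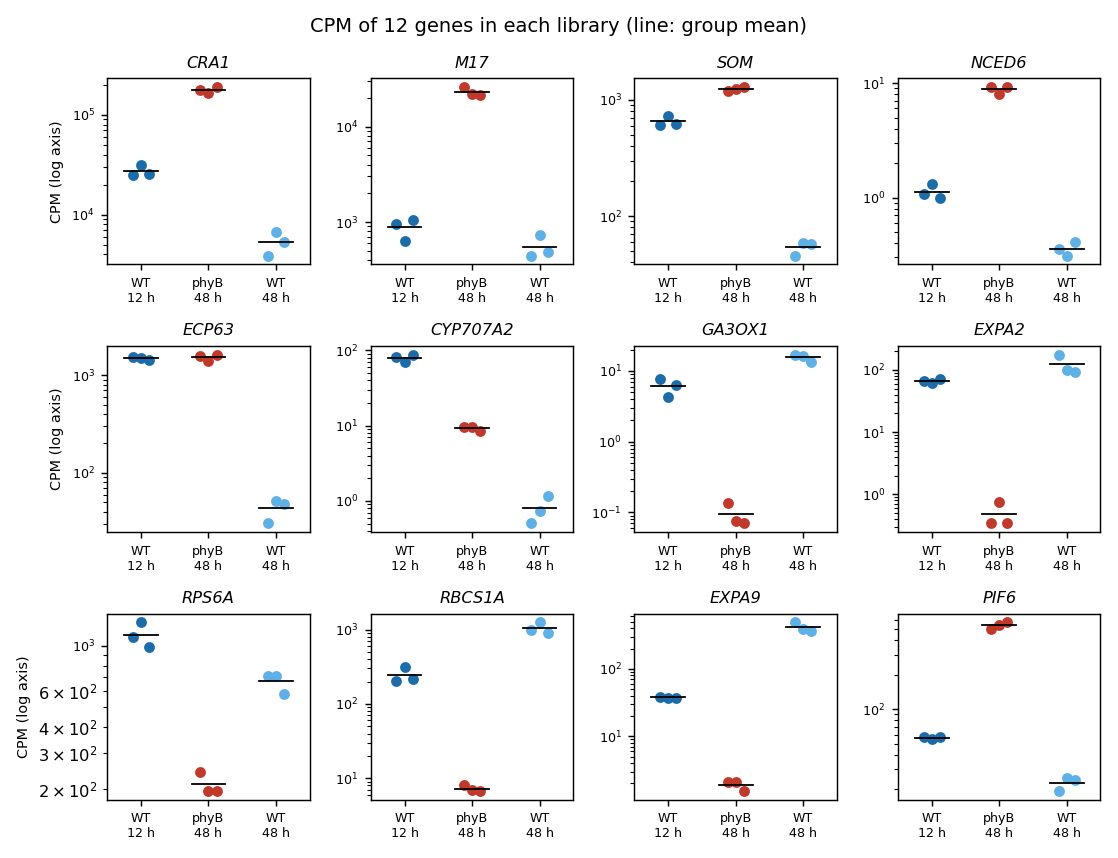
CPM (log axis) of 12 genes in each of the 3 libraries of WT at 12 h, phyB at 48 h and WT at 48 h, with group means as lines. In CRA1, M17, SOM, NCED6 and PIF6 phyB lies above both WT groups, and in GA3OX1, EXPA2, RPS6A, RBCS1A and EXPA9 below both. In ECP63 it lies at the level of WT at 12 h, and in CYP707A2 between the WT groups.

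Transcripts for the last step of GA synthesis were near 0 in the mutant. GA3OX1, the 3-oxidase that makes bioactive GA, stood at 0.137, 0.0753 and 0.0696 CPM in phyB at 48 h, 7.62, 4.22 and 6.25 CPM in WT at 12 h and 16.97, 16.2 and 13.5 CPM in WT at 48 h (log2 -5.91 ± 0.46, adjusted p 4.62e-12). GA3OX2 had 2 counts in the 3 mutant libraries and 38 in WT at 12 h, a ratio of 14.8-fold lower (95% counting interval 3.82 to 126). It no longer passed with WT replicate 2 alone (adjusted p 0.0611). Among enzymes of earlier steps, GA2, a kaurene synthase, rose from 6.30, 6.09 and 6.14 to 24.8, 29.1 and 29.0 CPM (log2 2.16 ± 0.10), and GA20OX3, a 20-oxidase, from 33.97, 90.2 and 37.8 to 231, 225 and 213 CPM (log2 2.05 ± 0.24), although WT replicate 2 stood above the other two. Of 10 synthesis genes 6 rose and 3 fell, where 35.5% and 33.9% of all genes did. The median was 0.38 (-0.05 under total count scaling, where 2 rose and 5 fell). GA2OX2, a GA-inactivating oxidase, rose from 3.40, 3.08 and 3.45 to 11.1, 8.88 and 11.2 CPM (log2 1.65 ± 0.14), the 1 member of the 3 tested 2-oxidases that passed.

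Of 9 GA signalling genes 6 fell and 2 rose (median log2 -0.55), where 33.9% and 35.5% of all genes did. The DELLA repressors RGL2 and RGL3 fell from 209.5, 254 and 215 to 99.4, 93.9 and 93.6 CPM and from 161, 136 and 153 to 20.9, 19.4 and 21.8 CPM, with log2 changes of -1.24 ± 0.07 and -2.85 ± 0.07. RGL3 was at the level of WT at 48 h, 22.6, 21.4 and 19.0 CPM (difference -0.02 ± 0.08, adjusted p 0.794). The receptor GID1A rose from 83.0, 96.2 and 82.4 to 215, 223 and 244 CPM and GID1C from 20.9, 21.1 and 19.9 to 35.8, 40.6 and 37.8 CPM. Among the GASA peptides, many of them GA-regulated, GASA6 had 3 counts in the 3 mutant libraries and 1309 in WT at 12 h, 339-fold lower (95% counting interval 116 to 1647), while WT at 48 h still held 19.9, 11.1 and 15.8 CPM. GASA2 rose from 91.9, 62.4 and 103 to 810.4, 637 and 748 CPM (log2 3.09 ± 0.18) and was down to 2.51, 5.67 and 4.06 CPM in WT at 48 h. Over 6 tested members 3 fell and 1 rose (median -1.11), beside 33.9% and 35.5% of all genes. With WT replicate 2 alone the median was 0.24, and the sign of the GASA4 change turned, to 0.25.

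All 4 other phytochrome genes passed as higher in the mutant, 2 of them by little, where 35.5% of all genes were higher. PHYA, the far-red sensor, rose from 560.5, 614 and 561 to 1431, 1463 and 1538 CPM (log2 1.35 ± 0.07) and PHYE from 104, 102 and 102 to 197, 235 and 238 CPM (log2 1.12 ± 0.06). PHYD and PHYC rose by 0.36 ± 0.07 and 0.25 ± 0.06, and these small changes turned to -0.08 and -0.18 under total count scaling, as did the median of the 5 genes, from 0.36 to -0.08, with 2 genes higher and 2 lower. Of the light signalling factors 9 of 14 fell and 4 rose (median -0.67), where 33.9% and 35.5% of all genes did. PIF1, PIL5 in the table, the germination repressor that phytochrome B destabilises as a protein, fell from 293, 281 and 276 to 184, 182 and 218 CPM (log2 -0.54 ± 0.06), and was above the 75.1, 71.4 and 75.6 CPM of WT at 48 h (difference 1.40 ± 0.06). PIF6, a factor of the same family, rose from 56.9, 54.7 and 57.4 to 503, 543 and 573 CPM (log2 3.26 ± 0.10). The bZIP factors of light-grown development, HY5 and HYH, fell from 3.50, 2.45 and 3.62 to 0.821, 0.452 and 0.279 CPM and from 3.45, 2.68 and 3.62 to 0.137, 0.151 and 0.0696 CPM, with log2 changes of -2.605 ± 0.27 and -4.71 ± 0.36.

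Clock genes rose in 12 of 17 cases and fell in 3 (median log2 1.12), where 35.5% and 33.9% of all genes did. GI rose from 4.57, 5.92 and 5.55 to 41.7, 51.0 and 51.7 CPM (log2 3.17 ± 0.12), where WT at 48 h held 32.5, 32.5 and 30.5 CPM. TOC1 rose from 85.9, 82.8 and 83.1 to 211, 222 and 245 CPM and PRR7 from 43.1, 47.9 and 43.5 to 143, 155 and 164 CPM, while both fell in WT. ELF4 fell from 25.2, 27.2 and 27.5 to 4.51, 3.84 and 3.83 CPM (log2 -2.71 ± 0.10). The hour of day of sampling was not given in the sources used here. Clock phase in the groups cannot be told apart from time and genotype.

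Cell wall expansins, which loosen walls as the embryo and endosperm expand, were lower in most cases, where 33.9% of all genes were lower. Of 13 members 8 fell and 2 rose (median log2 -2.70), and 8 also fell with WT replicate 2 alone. EXPA2, known from the endosperm of germinating seeds, stood at 0.342, 0.753 and 0.348 CPM in phyB at 48 h against 66.7, 61.7 and 71.1 CPM in WT at 12 h and 174, 101 and 91.3 CPM in WT at 48 h (log2 -7.11 ± 0.31, adjusted p 3.03e-17). EXPA3 fell from 76.1, 42.6 and 79.5 to 1.98, 1.81 and 1.601 CPM, EXPA10 from 97.3, 74.3 and 106 to 4.103, 3.54 and 2.92 CPM, and EXPA9 from 38.7, 37.1 and 37.1 to 2.12, 2.11 and 1.53 CPM. Their log2 changes were -5.20 ± 0.23, -4.71 ± 0.15 and -4.29 ± 0.17. EXPA15 fell from 35.5, 34.2 and 37.2 to 3.83, 2.33 and 2.298 CPM (log2 -3.65 ± 0.13) and did not pass in WT over time (log2 0.01 ± 0.09). No mutant library reached the lowest WT library in any of these 5 genes, which were named by their values in this same comparison. Replicates did not overlap for 69.5% of all genes.

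Other wall enzymes and water channels fell too, but for many of them the call rested on WT replicates 1 and 3. Beside the counts below, 33.9% of all genes fell and 35.5% rose. Among xyloglucan-modifying enzymes (XTH) and mannanases 8 of 14 fell and 2 rose (median -1.04). The number that fell was 3 without WT replicate 1, 5 without phyB replicate 1, and 1 with WT replicate 2 alone, at a median of 0.28. That 1 is MAN7, an endo-mannanase that weakens the endosperm, which fell from 122, 155 and 134 to 19.4, 19.7 and 21.9 CPM (log2 -2.75 ± 0.12). XTH31, at 2.95, 0.797 and 4.56 CPM in WT and 0.410, 0.753 and 0.279 CPM in phyB, had an adjusted p of 5.92e-04 with all libraries and 0.501 with WT replicate 2 alone. Aquaporins fell in 13 of 19 cases and rose in 3 (median -2.04), with 8 falls with WT replicate 2 alone. The plasma membrane channels PIP2;7 and PIP1;3 fell from 62.6, 48.4 and 66.3 to 8.27, 7.23 and 6.82 CPM and from 14.1, 7.46 and 8.71 to 0.821, 0.602 and 0.487 CPM, with log2 changes of -2.99 ± 0.14 and -3.98 ± 0.31. TIP3;2, a seed-specific channel of storage vacuoles, rose from 667, 627 and 663 to 2173, 1878 and 2076 CPM (log2 1.65 ± 0.14).

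Most nuclear genes for photosynthesis were lower than in early WT seeds, where 33.9% of all genes were lower and 35.5% higher. Of 21 tested genes of photosystems and Rubisco 15 fell and 1 rose (median log2 -2.08), and 9 fell with WT replicate 2 alone. RBCS1A, a small subunit of Rubisco whose family members share sequence, fell from 206, 309.6 and 213 to 8.21, 6.85 and 6.68 CPM (log2 -5.06 ± 0.19, adjusted p 1.97e-18), while WT at 48 h held 990.4, 1246 and 906 CPM. WT replicate 2 was here the highest of its group. Plastocyanin PETE2 fell from 4.88, 7.01 and 4.50 to 0.137, 0.0753 and 0.0696 CPM (log2 -5.75 ± 0.45). LHCB4.1, an antenna protein of photosystem II, was the member that rose, from 46.2, 51.9 and 49.9 to 146, 149 and 155 CPM (log2 1.61 ± 0.08). Of 13 chlorophyll synthesis genes 11 fell (median -1.72; 7 with WT replicate 2 alone). CHLI1 and CHLM, enzymes of the magnesium branch, fell from 13.9, 16.6 and 12.4 to 1.98, 2.94 and 1.18 CPM and from 41.3, 45.9 and 44.5 to 17.57, 17.7 and 16.9 CPM.

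Genes for cytosolic ribosomal proteins were lower in all 15 of 15 cases, where 33.9% of all genes were lower. Their median log2 change was -1.51, with a range of -2.43 to -0.745. In WT 14 fell by 48 h (median -0.57), where 40.5% of all genes fell. RPS6A, a protein of the small subunit, stood at 242, 194 and 194 CPM in phyB, 1106, 1301 and 986 CPM in WT at 12 h and 709, 715 and 583 CPM in WT at 48 h (log2 -2.43 ± 0.10, and -1.67 ± 0.10 against WT at 48 h). RPL5A and RPL5B, 2 copies of a large subunit protein, fell by nearly the same amount (-1.69 ± 0.08 and -1.70 ± 0.08). Against WT at 48 h 14 of the 15 passed as lower in phyB, where 49.4% of all genes did.

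Lipid mobilisation, by which seedlings turn oil into sugar, also stood below the early WT level in most cases. Of 21 genes 16 fell and 3 rose (median -0.66), where 33.9% and 35.5% of all genes did. The β-oxidation enzymes KAT2 and MFP2 fell from 2301, 2462 and 2412 to 774, 745 and 757 CPM and from 1778, 1803 and 1811 to 637, 609 and 571 CPM, with log2 changes of -1.66 ± 0.07 and -1.57 ± 0.07. MFP2 did not pass in WT over time (1758, 1770.0 and 1739.7 CPM at 48 h, log2 -0.03 ± 0.07). ACX3, an acyl-CoA oxidase, and PMDH1, a peroxisomal malate dehydrogenase, changed by -1.36 ± 0.06 and -1.24 ± 0.06 on the log2 scale.

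Cell division genes were mixed. Of 39 members 17 fell, 6 rose and 16 did not pass (median -0.38), and 33.9% of all genes fell, so the share that fell was not far from that of all genes. In WT by 48 h 36 rose (median 3.61), where 47.3% of all genes rose. Log2 changes over the list ran from -3.24 to 4.52, and the values below are of members that fell or did not pass. Replication genes were among the falls. MCM2, of the replicative helicase, fell from 11.6, 14.4 and 11.5 to 2.598, 2.11 and 2.02 CPM, the sliding clamp PCNA2 from 21.9, 21.8 and 19.0 to 6.09, 5.65 and 4.46 CPM, and the ribonucleotide reductase subunit TSO2 from 37.2, 32.2 and 33.8 to 12.1, 11.1 and 10.8 CPM. The mitotic cyclin CYCB1;3 had 0 counts in all 6 libraries and 6.96, 6.91 and 6.59 CPM in WT at 48 h. CYCD3;1 stood at 1.71, 1.66 and 1.53 CPM beside 1.52, 1.48 and 1.75 CPM and did not pass (adjusted p 0.889).

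Auxin genes fell in 16 of 23 cases (median -1.6000) and rose in 1. Among all genes 33.9% fell and 35.5% rose, shares that serve for each list of this paragraph. The influx carrier AUX1 fell from 16.0, 16.4 and 18.8 to 2.26, 2.33 and 1.95 CPM and the efflux carrier PIN3 from 9.19, 9.97 and 9.29 to 1.98, 1.81 and 1.601 CPM (log2 -2.97 ± 0.15 and -2.39 ± 0.14). Low oxygen genes showed 2 rises and 4 falls among 11, falls near the share of all genes (median -0.35, 0 with WT replicate 2 alone). Of 4 starvation genes 1 rose and 2 fell. BCAT2, a branched-chain amino acid transaminase, rose from 13.4, 11.1 and 14.96 to 49.9, 49.99 and 51.7 CPM (log2 1.94 ± 0.12). SEN1, a dark-induced gene, changed by -1.28 ± 0.15. DIN10, which is also in the raffinose list, fell by -1.74 on the log2 scale and stood at -0.94 with WT replicate 2 alone. ASN1, asparagine synthetase, stood at 289, 307 and 319 CPM beside 309, 278 and 315 CPM in early WT seeds, and at 2.91, 5.46 and 5.06 CPM in WT at 48 h. It did not pass with TMM factors (log2 0.02 ± 0.13) and stood at -0.42 under total count scaling. The ER stress list had 3 rises and 2 falls among 9 (median -0.01; 5 and 1 with WT replicate 2 alone, 0 and 6 under total count scaling).

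Markers of seed tissues were checked beside these groups. Among all genes 35.5% rose and 33.9% fell. Of 6 tested endosperm markers, 4 of which also stand in other lists, 3 rose and 3 fell (2 and 3 under total count scaling), and their summed share was 1.05 to 1.15% in phyB at 48 h and 0.680 to 0.817% in WT at 12 h. EPR1, an endosperm wall protein that makes up most of that share, rose by 1.07 ± 0.18 on the log2 scale. Of 9 embryo epidermis markers 4 fell and 1 rose (median -0.30, 0.14 with WT replicate 2 alone), with shares of 0.0247 to 0.0261% and 0.0419 to 0.0448%. Among the 4, CUT1 and LTP1 stood at 0.14 and 0.29 with WT replicate 2 alone. Without WT replicate 1 neither passed (adjusted p 0.0507 and 0.270). LTP1 also did not pass without phyB replicate 3 (adjusted p 0.126) or with only the compared groups fitted (adjusted p 0.0563). PDF1 fell from 73.3, 58.4 and 72.6 to 30.5, 27.6 and 29.2 CPM. Seed coat flavonoid markers were near 0 in both groups, with 5 of 7 not tested and none passing (1 lower under total count scaling and 1 without phyB replicate 3). The part of tissue proportions in the results was not tested.

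Several of the largest rises were outside the lists. AT1G17990 and AT1G18020, near-identical genes of FMN-linked oxidoreductases whose reads may be shared, had 1745 and 1294 counts in the 3 mutant libraries and 1 count each in WT at 12 h. The ratios were 2244 and 1664, with 95% counting intervals from 402 and 298 upwards. Both were also low in phyB at 12 h and 24 h by label, at 0.410 and 1.61 CPM for AT1G17990. The pseudogene AT2G13580 rose from 0, 0.114 and 0.117 to 28.4, 19.1 and 19.6 CPM. Chloroplast rRNA rose, with RRN16S.2 at 368, 402 and 369.9 against 3.50, 2.34 and 2.40 CPM and RRN23S.2 at 826, 805 and 992 against 11.1, 9.34 and 7.54 CPM. These genes lie in 2 copies in the chloroplast genome, so single copies are uncertain. All chloroplast genes together took 0.157 to 0.202% of counts in phyB and 0.311 to 0.375% in WT at 12 h, so the rRNA went against the sum. The mitochondrial genes ATP1 and NAD3 rose from 0.305, 0.171 and 0.409 to 19.4, 22.4 and 24.2 CPM and from 0.254, 0.171 and 0.117 to 6.15, 15.8 and 9.05 CPM, while mitochondrial genes together took 0.0969 to 0.131% and 0.128 to 0.160% of counts. The libraries were made from poly(A) RNA, and how much organelle RNA each one retained was not tested.

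Among the largest falls, AT5G43800.1, AT2G01021 and HSD1 had 0 counts in phyB at 48 h. AT5G43800.1, without a symbol in the table, stood at 52.6, 67.7 and 58.7 CPM in WT at 12 h and was at least 836-fold lower in phyB. Its means in phyB at 12 h and 24 h were 0.0381 and 0.0616 CPM and in hid1 at 12, 24 and 48 h 0.0165, 0 and 0.0660 CPM, against 23.7 and 51.5 CPM in WT at 24 and 48 h, so it was near 0 in both mutants at every time. AT2G01021 stood at 15.44, 11.6 and 8.01 CPM in WT at 12 h, at least 167-fold above the mutant, in a short gene whose reads may be shared with similar sequence. The chloroplast protein genes PSBTN, ATPC1 and PRXQ fell from 11.6, 12.8 and 9.82 to 0.342, 0.0753 and 0.139 CPM, from 18.4, 25.2 and 18.8 to 0.615, 0.904 and 0.0696 CPM and from 10.8, 15.2 and 14.0 to 0.205, 0.527 and 0.418 CPM, with log2 changes of -5.87 ± 0.35, -5.30 ± 0.28 and -5.11 ± 0.28. The carboxypeptidase-like gene scpl20 changed by -5.91 ± 0.23.

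A gene was counted as highest in phyB at 48 h where its lowest library there was over 2 times the highest of the other 24 libraries, with at least 10 CPM, and as lowest in the mirrored case. There were 395 highest (1.93%) and 275 lowest genes (1.34%) by this count. The counts were 1457 and 501 in WT at 48 h, 171 and 47 in phyB at 12 h by label and 19 and 3 in hid1 at 48 h. WT at 12 h had 0 and 1, and the remaining groups at most 1 and 2. A group close to another can hold few such genes, and hid1 at 12 h lay 0.389 from WT at 12 h. Under total count scaling they were 99 and 992. NSP2, a nitrile specifier protein that steers glucosinolate breakdown in seeds, was among the highest, at 5694, 5509 and 5987 CPM against 526, 339.8 and 515 CPM in WT at 12 h and 43.5, 75.8 and 68.3 CPM in WT at 48 h (log2 3.64 ± 0.24). AT1G55980, an FAD-linked oxidoreductase, stood at 21.9, 28.0 and 25.2 against 0.863, 1.14 and 0.994 CPM, and AT5G28460, a pentatricopeptide repeat protein, at 38.0, 35.0 and 32.9 against 0.660, 0.684 and 0.760 CPM. EXPA2, GASA6, HSD1 and AT2G01021 were among the lowest.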

How the data were processed

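Poly(A) RNA of 27 seed libraries (3 genotypes, 3 times, 3 biological replicates each) was sequenced as paired 150 bp reads, per the labels' protocols. Per the submitters' processing notes, fastp, HISAT2 2.1.0, SAMtools 1.6 and the TAIR10 build were used, and the counting tool and strand setting were not given in the sources used here. Gene counts, deposited by the authors, were tested, and the FPKM group means the authors deposited served only to rank genes per length. Of 33612 genes 5633 held no count, and 20465 passed the low count filter of edgeR 4.0.16 (R 4.3.3). All 27 libraries entered 1 quasi-likelihood fit with TMM factors, a coefficient for each of 9 groups and 18 residual degrees of freedom, with Benjamini-Hochberg adjustment over all genes tested at 0.05. The steps were tested on simulated data in which few genes changed, as many up as down. So many genes differ here that this simulation does not test the scaling.

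Alternatives were RLE and total count scaling, no filter, DESeq2 1.42.0, limits on the groups fitted, a replicate block, a test against a fold of 2 and leaving out each library. Repeats with WT replicate 2 as the only WT library at 12 h and without the phyB libraries at 12 and 24 h were chosen after seeing the data. Genes named were the 12 largest rises and falls without overlap and at least 10 CPM, up to 4 members of each list with the smallest p, 15 fixed genes, the 8 highest and 4 lowest in phyB at 48 h, and 6 genes that stayed near the early level. A gene without a symbol was named only among the first 4 of its direction or among the highest and lowest. SESA1, SESA2, SESA3, SESA4, EM6, RAB18, EPR1 and LCR67 were named after their values were seen. The comparison, its members and the 34 gene lists were chosen with earlier results of these data known. Fold bounds rest on 3 counts summed over a group as the floor, and 95% intervals and floors cover counting error only. Sequences are from NCBI RefSeq, build TAIR10.1, 250 bases before the annotated start. Within groups no 2 libraries agreed within sampling noise. Columns of other samples numbered 0.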

Additional observations from a re-analysis of the deposited data

How the results depend on the processing

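The number of genes that differed between phyB at 48 h and WT at 12 h was 14217 with TMM factors, 14235 with RLE size factors, 13991 with DESeq2, 14339 without the filter and 12916 with only the compared groups fitted. Under total count scaling 4215 genes were higher in phyB than in WT at 12 h and 5317 higher than in WT at 48 h, and 99 and 992 genes were highest and lowest in phyB at 48 h. Against a fold of 2 the counts were 4248 in all, 1907 higher and 2341 lower. Leaving out 1 library gave 13546 to 13899 genes that differed (6968 to 7079 higher, 6578 to 6905 lower), 17741 to 17938 in WT over time (9561 to 9697 higher, 8159 to 8275 lower) and 18136 to 18293 between the genotypes at 48 h (8076 to 8146 higher, 10034 to 10157 lower). With WT replicate 2 as the only WT library at 12 h 12644 genes differed, and 14046 without the phyB libraries at 12 and 24 h. Replicate numbers did not pair the samples, with same-number correlations of deviations of 0.0111, -0.117 and -0.0568 between phyB at 48 h and WT at 12 h. A fit with the replicate number as a block called 14254 genes here, 18019 in WT over time and 18326 between the genotypes at 48 h, and no count over all genes moved by over 1.5 times. Of 68 counts of list members 1 moved, the seed coat markers, from 0 to 1 lower. Under total count scaling 22 of the 68 moved by over 1.5 times, and 41 against a fold of 2. Of 159 named genes 135 kept their side of the threshold and direction under every setting in which they were tested, 24 changed and 10 of these reversed. The test against a fold of 2 was not run for the named genes one by one, and a few of them had too few counts to be tested with only the compared groups fitted. Under total count scaling PHYD stood at -0.079, PHYC at -0.18, CRT1 at -0.10, ASN1 at -0.42 and ECP63 at -0.40 on the log2 scale. With WT replicate 2 as the only WT library at 12 h GASA4 stood at 0.25, XTH16 at 0.40, CUT1 at 0.14, LTP1 at 0.29 and SESA1 at 0.23. The cause of these reversals was not tested. Depth limits genes at a few counts, such as GA3OX2 and HY5, where single reads move the fold.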
